A study of Homo sapiens with 12 samples.

Results

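Lysosome and autophagy genes were followed through JQ1 treatment of 2 human neuroblastoma cell lines. The set held 35 genes, chosen by name for their role: 13 hydrolases and their cofactors, 5 proteins of the lysosomal membrane and of lipid export, 6 parts of the proton pump, 7 autophagy genes and 4 TFEB family regulators. Earlier results of these data were known when the set was chosen. Shares of the members beside shares of all genes are therefore a description and not a test. All 35 were measured, out of 18132 genes on the array, and no filter on low values was applied. BE(2)-C and Kelly are both established lines with an amplified MYCN gene, and BE(2)-C is itself a clonal subline, so each line comes from 1 tumour. The 4 groups were BE(2)-C cells given 1 µM JQ1 for 24 h, BE(2)-C cells given the solvent DMSO for the same time, and Kelly cells given JQ1 or DMSO in the same way. Each group held 3 Affymetrix PrimeView arrays, 12 in all. JQ1 occupies the bromodomains of the BET proteins, which bind acetylated chromatin, and DMSO alone was the vehicle control. Whether the triplicates came from different cultures is not in the labels, and the spread between arrays behind each p-value may be technical.

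Lysosomes break down proteins, lipids and sugar chains with acid hydrolases, which work at the low pH set by a proton pump, the V-ATPase. Autophagy brings cytoplasm and organelles to the lysosome: the kinase ULK1 starts the process, proteins of the ATG8 family such as LC3 coat the growing membrane, and receptors such as p62 load the cargo. TFEB, TFE3 and MITF are related transcription factors that bind E-boxes in the promoters of many of these genes once they enter the nucleus, and the mTORC1 kinase and folliculin control that entry.

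The promoters below are shown because they hold the E-box CACGTG, the core of the CLEAR element that TFEB binds. RefSeq promoter sequence (GRCh38.p14) was at hand for 25 of the 35 members, and the 250 bases before the transcription start were searched. CACGTG reads the same on both strands, so 1 search covers both. It was found in 7 of the 25 members, 28.0%, against 7.73% of the 27305 genes with a sequence. The longer form TCACGTGA, which contains CACGTG, was found in 5 members, 20.0%, against 1.04% of all genes. TFEB binds E-boxes in many genes of this kind, so a higher share in the members was to be foreseen from their choice. It is not a result of these data. The 27305 genes are also a different set from the 18132 on the array. The last 130 bases before the start follow 5′ to 3′ for these 7 members, with each CACGTG in capitals.
CTSA promoter, chr20:45891205-45891334, + strand: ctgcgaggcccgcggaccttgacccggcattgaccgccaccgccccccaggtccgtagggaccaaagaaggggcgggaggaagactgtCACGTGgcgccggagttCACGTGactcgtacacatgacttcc
CTSD promoter, chr11:1763928-1764057, - strand: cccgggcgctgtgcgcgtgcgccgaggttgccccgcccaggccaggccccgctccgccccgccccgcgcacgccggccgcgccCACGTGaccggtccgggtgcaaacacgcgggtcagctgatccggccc
GAA promoter, chr17:80101451-80101580, + strand: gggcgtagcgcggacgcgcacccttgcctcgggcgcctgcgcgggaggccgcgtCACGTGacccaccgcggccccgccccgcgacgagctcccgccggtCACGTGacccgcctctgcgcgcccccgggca
NEU1 promoter, chr6:31862822-31862951, - strand: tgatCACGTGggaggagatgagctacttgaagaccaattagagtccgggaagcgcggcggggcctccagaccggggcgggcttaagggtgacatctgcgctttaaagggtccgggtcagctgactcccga
LAMP1 promoter, chr13:113297109-113297238, + strand: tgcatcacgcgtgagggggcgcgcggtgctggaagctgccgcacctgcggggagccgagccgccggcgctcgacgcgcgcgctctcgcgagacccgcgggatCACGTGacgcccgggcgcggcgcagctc
MCOLN1 promoter, chr19:7522494-7522623, + strand: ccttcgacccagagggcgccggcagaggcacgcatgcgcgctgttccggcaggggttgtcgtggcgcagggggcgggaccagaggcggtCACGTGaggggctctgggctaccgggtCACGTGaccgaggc
ATP6V0D1 promoter, chr16:67481158-67481287, - strand: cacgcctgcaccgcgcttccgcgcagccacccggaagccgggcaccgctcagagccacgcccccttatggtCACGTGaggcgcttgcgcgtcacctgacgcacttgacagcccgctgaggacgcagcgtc
CTSA, GAA and MCOLN1 each carry 2 copies in the stretch shown. LAMP1 carries 5 in its 250 bases, 4 of them upstream of the stretch. A match of these letters is a description of the sequence and not a measured binding site. Of the 5 members that rose with JQ1 below, NEU1 alone held CACGTG and 0 held TCACGTGA, against 6 and 5 of the 20 members with a sequence that did not pass.

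Values are log2 intensities, and a gene was read from the brightest of its probe sets that name 1 gene. Levels of different genes are therefore not compared with each other. Arrays of the same group correlated at 0.952 to 0.996. Log2 fold changes of JQ1 in 1 line had a median standard error (SE) of 0.21. The lines were checked against cell type markers. The 8 measured neuroblastoma markers summed to an intensity of 36202 to 38744 in BE(2)-C with JQ1, 26704 to 28818 in BE(2)-C with DMSO, 37226 to 38737 in Kelly with JQ1 and 33625 to 38909 in Kelly with DMSO. The brightest, CHGA and HAND2, weigh most in these sums, and single markers went both ways with JQ1. TH (-1.48 in BE(2)-C, -1.90 in Kelly) and DBH (-1.60 and -0.98) passed as lower in both lines. PHOX2A, GATA3, CHGA and CHGB passed as higher in BE(2)-C only. The 7 markers of macrophages and other blood cells, which are rich in lysosomes, summed to 253 to 408 in every group. The 6 fibroblast markers summed to 262 to 296 in BE(2)-C with JQ1, 478 to 536 in BE(2)-C with DMSO, 261 to 311 in Kelly with JQ1 and 267 to 369 in Kelly with DMSO. DCN and LUM differed most among them, and the part of this difference in the results was not tested. In RNA from whole cultures, fewer cells of a type and less RNA per cell cannot be told apart.

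JQ1 raised a small number of these genes and lowered 0 at the threshold of 0.05 on limma's adjusted p. Averaged over the lines, 5 of 35 members passed, all 5 higher: the sialidase gene NEU1, the cholesterol carrier NPC2, the LC3 gene MAP1LC3B, the kinase gene ULK1 and the progranulin gene GRN. That is 14.3% of the members, where 11.1% of all genes passed, 4.02% as higher and 7.04% as lower. The median log2 fold change was 0.13 over the members and 0.06 over all genes. At an unadjusted p below 0.05, 8 members were higher and 1 was lower in this average. Of all 18132 genes, 1684 were higher and 2346 lower at that cut.

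In BE(2)-C, 3 members passed, all higher: NEU1, NPC2 and MAP1LC3B. This was 8.57% of the members, where 4.69% of all genes passed, 2.18% as higher and 2.51% as lower. In Kelly, 3 members passed as well, again all higher: NEU1, NPC2 and ULK1. Of all genes 6.5% passed in Kelly, 1.76% as higher and 4.73% as lower. NEU1 and NPC2 thus passed as higher in both lines, as did 0.607% of all genes. By limma 0 members passed as lower in either line. At an unadjusted p below 0.05, 9 members were higher and 1 lower in BE(2)-C, and 6 were higher and 2 lower in Kelly. Of all 18132 genes, 1376 were higher and 1391 lower in BE(2)-C at that cut, and 1858 and 2219 in Kelly.

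The arrays were also compared without a test. All 3 JQ1 arrays lay above all 3 DMSO arrays for 11 members in BE(2)-C, 31.4% of them, where 11.5% of all genes had this, and below them for 1 member, where 10.7% of all genes had this. In Kelly they lay above for 8 members, 22.9%, against 12.1% of all genes, and below for 2, against 11.6%. NEU1, NPC2, MAP1LC3B, ULK1 and GRN had JQ1 above DMSO with no overlap in both lines, as did 2.8% of all genes. The median log2 fold change was 0.20 over the members in BE(2)-C, against -0.01 over all genes, and 0.07 in Kelly, against 0.08 over all genes. The Kelly median of the members was -0.05 without Kelly JQ1 replicate 1, 0.20 without Kelly JQ1 replicate 3 and 0.23 with quantile normalization, where all genes had 0.08, 0.07 and 0.09.

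**Figure D1:**
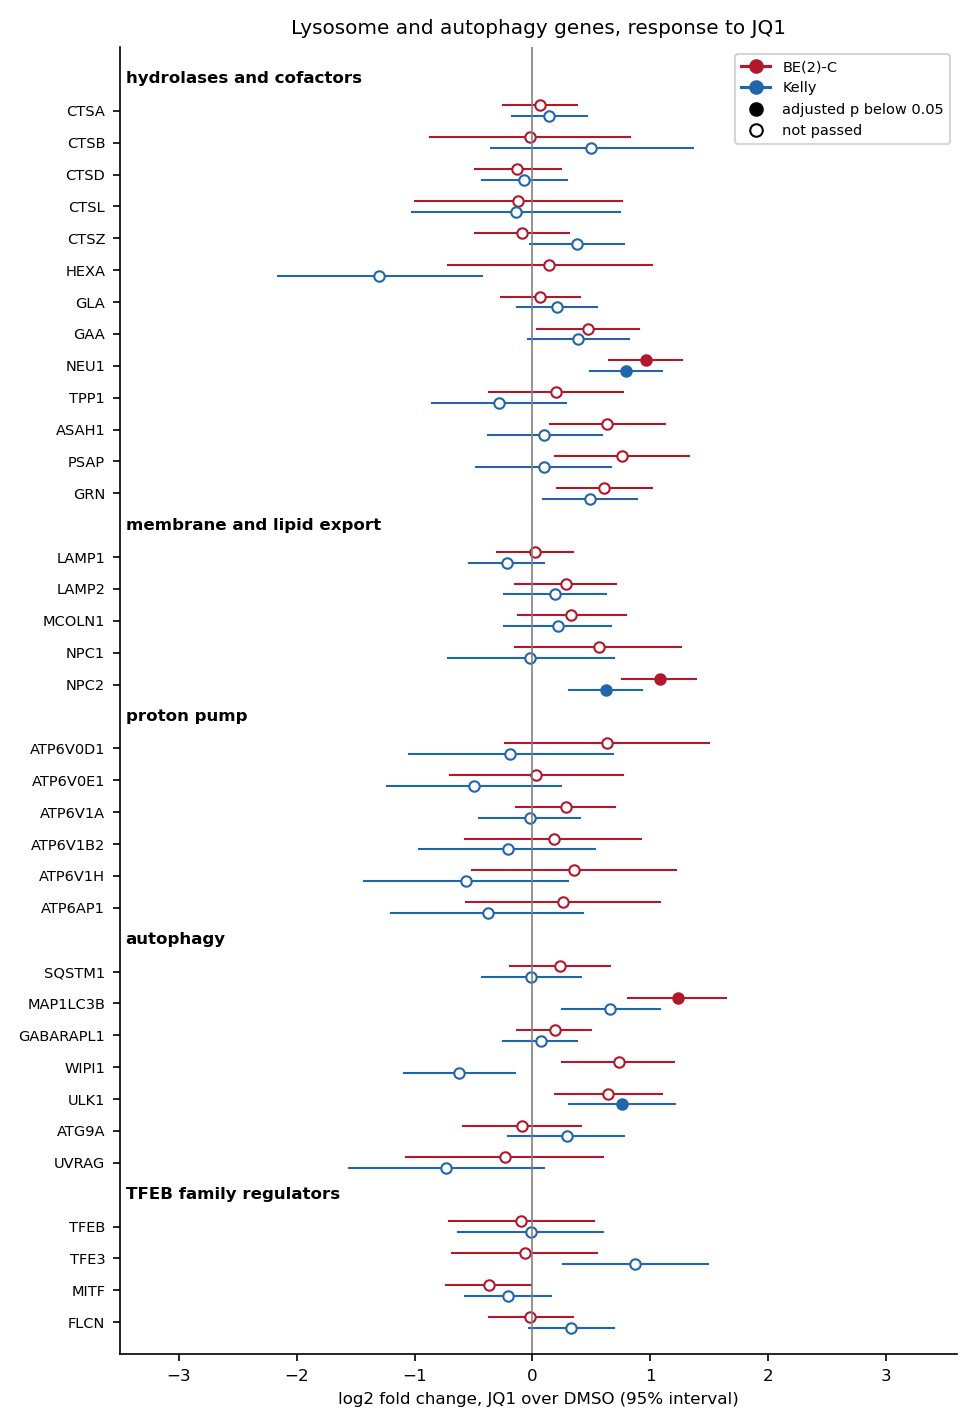
Log2 fold change with JQ1 over DMSO (x axis) for each of the 35 genes (rows, grouped by role), with BE(2)-C in red above Kelly in blue. Lines are 95% intervals and filled circles passed an adjusted p of 0.05; NEU1 and NPC2 are filled in both lines, MAP1LC3B in BE(2)-C and ULK1 in Kelly.

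The Kelly count depended on single arrays, as did the share of all genes. It was 1 without Kelly JQ1 replicate 2, without Kelly DMSO replicate 1 or without Kelly DMSO replicate 2. In these fits 4.14%, 3.33% and 3.75% of all genes passed. It was 5 without Kelly DMSO replicate 3 (3 higher, 2 lower) or without BE(2)-C DMSO replicate 1 (5 higher), where 12% and 9.07% of all genes passed. With the replicate number as a block, which treats same-numbered samples of a line as pairs, 5 members passed, 4 higher and 1 lower. The block called 8.4% of all genes. The BE(2)-C count stayed at 3 whichever array was left out, while 1.78% to 6.67% of all genes passed.

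Among the hydrolases and their cofactors, 2 of 13 passed in the average and both were higher. NEU1 encodes the lysosomal sialidase, which removes sialic acid from sugar chains (chromosome 6). It stood at 9.77, 9.82 and 9.91 in BE(2)-C with JQ1, against 8.89, 8.86 and 8.88 with DMSO. The Kelly arrays read 9.86, 9.90 and 9.54 with JQ1, against 9.03, 8.91 and 8.99 with DMSO. The JQ1 and DMSO arrays were well apart in both lines, and the DMSO arrays of the lines were close to each other. With JQ1 the level of NEU1 was 1.94-fold higher in BE(2)-C (log2 fold change 0.96 with an SE of 0.14, limma adjusted p = 0.00202). In Kelly it was 1.73-fold higher (0.79 with an SE of 0.14, limma adjusted p = 0.00466). The BE(2)-C call held under all 20 alternatives, and the Kelly call under 19 of 20, the exception being the fit to the 6 Kelly arrays alone. The difference between the lines was 0.17, with a 95% interval of -0.27 to 0.60. NEU1 has 1 probe set.

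GRN encodes progranulin, a secreted protein that is also cut into granulins inside the lysosome (chromosome 17). It stood at 10.06, 9.90 and 10.42 in BE(2)-C with JQ1, against 9.77, 9.43 and 9.34 with DMSO. Its Kelly values were 9.61, 9.81 and 9.77 with JQ1, against 9.34, 9.0 and 9.39 with DMSO. The groups did not overlap in either line, though the gap in BE(2)-C between the lowest JQ1 array and the highest DMSO array was small. GRN rose 1.46-fold in the average (0.55, SE 0.13, limma adjusted p = 0.0157) but in neither line alone, where the limma adjusted p was 0.086 in BE(2)-C and 0.142 in Kelly. The 2 dimmer probe sets of GRN gave 0.88 and 0.95 in BE(2)-C and -0.14 and 0.08 in Kelly, so in Kelly the probe sets of GRN did not move alike. With the mean of its probe sets the limma adjusted p of the average was 0.0799, and with the brightest unsuffixed probe set it was 0.406.

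PSAP, ASAH1 and GAA had positive estimates that did not pass when read from the brightest probe set. PSAP encodes prosaposin, the precursor of the saposins that help hydrolases reach lipids. It stood at 12.25, 12.52 and 12.14 in BE(2)-C with JQ1, against 11.09, 11.88 and 11.65 with DMSO, and at 11.46, 11.22 and 11.10 in Kelly with JQ1, against 11.41, 11.52 and 10.55 with DMSO. The JQ1 arrays lay above the DMSO arrays in BE(2)-C and among them in Kelly. Its log2 fold change was 0.76 in BE(2)-C (SE 0.26, limma adjusted p = 0.145) and 0.10 in Kelly. All 4 probe sets of PSAP were alike in BE(2)-C, at 0.76 to 0.82. When all probe sets were tested, 1 of the dimmer ones passed as higher in BE(2)-C (0.78, limma adjusted p = 0.0452) and in the average (0.50, limma adjusted p = 0.0363). The acid ceramidase gene ASAH1 stood at 10.01, 9.79 and 9.40 in BE(2)-C with JQ1, against 9.09, 8.88 and 9.34 with DMSO, a log2 fold change of 0.63 (SE 0.22, limma adjusted p = 0.153), and its Kelly estimate was 0.10. The groups of ASAH1 did not overlap in BE(2)-C. GAA, the acid glucosidase that breaks down glycogen, had log2 fold changes of 0.47 in BE(2)-C and 0.39 in Kelly, and the average of 0.43 missed the threshold (SE 0.14, limma adjusted p = 0.0715). The GAA average passed without BE(2)-C DMSO replicate 1 or without Kelly DMSO replicate 3.

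HEXA, the alpha subunit of beta-hexosaminidase, had the lowest estimate of the 35 genes. It stood at 8.16, 7.83 and 6.43 in Kelly with JQ1, against 9.04, 9.15 and 8.13 with DMSO, and at 9.26, 9.49 and 9.25 in BE(2)-C with JQ1, against 8.69, 9.42 and 9.45 with DMSO. In Kelly the arrays of the groups overlapped slightly, since the highest JQ1 array lay just above the lowest DMSO array. The log2 fold change was -1.30 in Kelly (SE 0.40, limma adjusted p = 0.076) and 0.14 in BE(2)-C. In the fit with the replicate block HEXA passed as lower in Kelly (limma adjusted p = 0.00598) and in the average (-0.58, limma adjusted p = 0.035). It also passed without Kelly JQ1 replicate 1 (0.0383) or without Kelly DMSO replicate 3 (0.0269). HEXA has 8 probe sets. When all 44994 probe sets were tested, 2 of the other 7 passed as lower in Kelly, with log2 fold changes of -0.61 (limma adjusted p = 0.0159) and -1.07 (0.0495), while the remaining 5 lay between -0.58 and 0.

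The cathepsin genes gave no passing change. CTSB and CTSL encode cysteine proteases, CTSD an aspartic protease, CTSZ a carboxypeptidase, and CTSA the protective protein that holds NEU1 in its active complex. Their log2 fold changes in BE(2)-C ran from -0.13 for CTSD to 0.06 for CTSA. In Kelly they ran from -0.14 for CTSL to 0.50 for CTSB. The 95% intervals for CTSA were narrow, at -0.25 to 0.38 in BE(2)-C and -0.17 to 0.46 in Kelly. Those for CTSB were wide, at -0.87 to 0.83 and -0.35 to 1.36. CTSZ was dim on every array, at 4.32 to 5.28. GLA, the alpha-galactosidase, had log2 fold changes of 0.06 in BE(2)-C and 0.21 in Kelly. TPP1, a tripeptidyl peptidase, had 0.20 and -0.28.

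Of the membrane and lipid export genes, 1 of 5 passed. NPC2 encodes the soluble protein that hands cholesterol to NPC1 inside the lysosome (chromosome 14). It stood at 8.58, 8.50 and 8.47 in BE(2)-C with JQ1, against 7.30, 7.64 and 7.38 with DMSO. Kelly cells had 7.38, 7.42 and 7.16 with JQ1, against 6.69, 6.69 and 6.74 with DMSO. The groups were clearly apart in each line, and Kelly with JQ1 came near the level of BE(2)-C with DMSO. NPC2 rose 2.11-fold in BE(2)-C (1.08, SE 0.14, limma adjusted p = 0.00114) and 1.54-fold in Kelly (0.62, SE 0.14, limma adjusted p = 0.022). The difference between the lines, 0.46, did not pass (limma adjusted p = 0.432). Its second probe set had log2 fold changes of 1.13 in BE(2)-C and 0.50 in Kelly, and the other 2, which were dimmer, lay between -0.05 and 0.24. The Kelly call was lost without Kelly JQ1 replicate 1 (limma adjusted p = 0.0614) or 2 (0.084) and without Kelly DMSO replicate 1 (0.0909) or 2 (0.077). It was also lost with the mean of the probe sets (0.35, limma adjusted p = 0.111), which gave 0.57 in BE(2)-C, while the average over the lines passed under all 19 alternatives run for it.

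NPC1, the membrane partner of NPC2 in cholesterol export, stood at 6.46, 7.17 and 6.11 in BE(2)-C with JQ1, against 5.54, 6.19 and 6.33 with DMSO. In Kelly it stood at 5.80, 5.67 and 4.99 with JQ1, against 5.45, 5.97 and 5.09 with DMSO. Its groups overlapped in both lines, and the log2 fold changes of 0.56 and -0.02 did not pass. LAMP1, an abundant glycoprotein of the lysosomal membrane, lay at 11.62 to 11.79 in BE(2)-C with JQ1 and 11.47 to 11.92 with DMSO, and at 11.40 to 11.51 in Kelly with JQ1 and 11.60 to 11.73 with DMSO. Its Kelly arrays with JQ1 were all below those with DMSO, by 0.22 on average (limma adjusted p = 0.385). LAMP2, its close relative, had log2 fold changes of 0.28 and 0.19 in BE(2)-C and Kelly. MCOLN1, the lysosomal calcium channel, had 0.33 and 0.22. NPC1, LAMP1, LAMP2 and MCOLN1 did not pass in either line. The 9 probe sets of LAMP2 did not move alike. When all probe sets were tested, 1 dimmer probe set of LAMP2 passed as higher in BE(2)-C (1.19, limma adjusted p = 0.0472) and in the average (0.73, limma adjusted p = 0.0487), and another had 1.32 in BE(2)-C (0.0738).

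**Figure D2:**
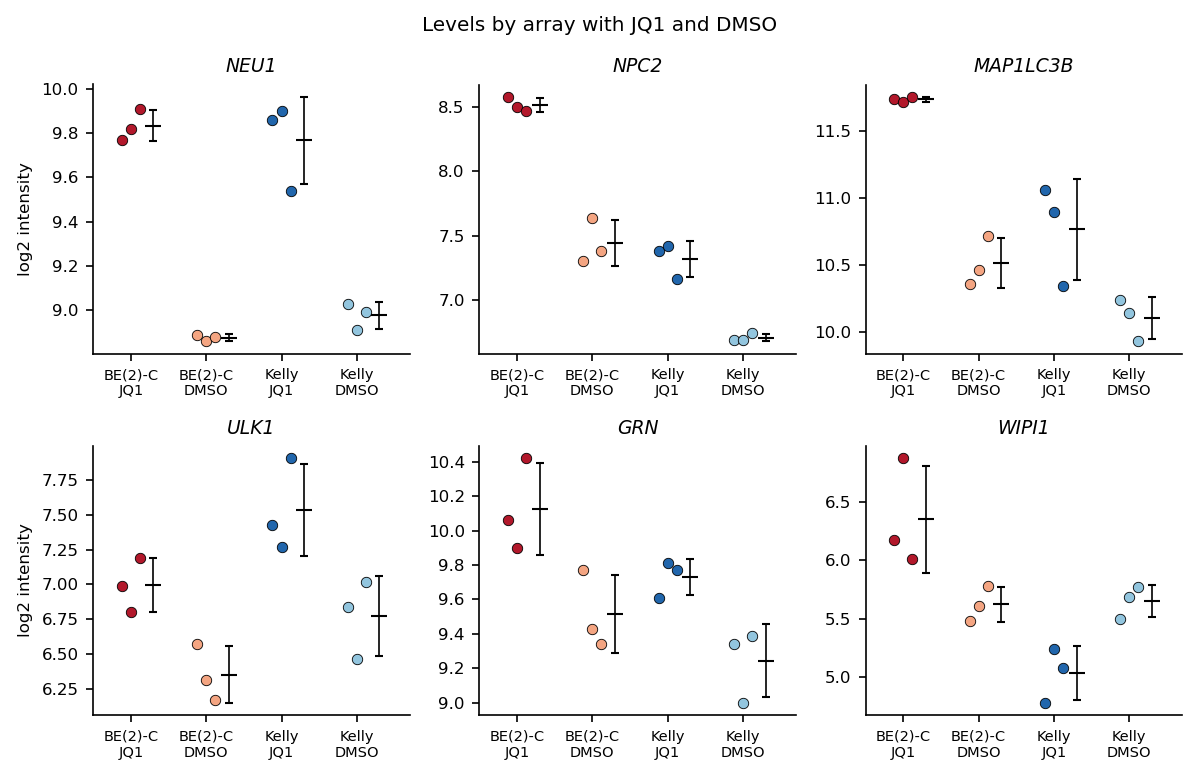
Log2 intensity (y axis) of 6 genes on each array, by line and treatment (x axis). Points are arrays, and bars are the mean and SD of 3. JQ1 lies above DMSO in both lines for NEU1, NPC2, MAP1LC3B, ULK1 and GRN, and WIPI1 lies above in BE(2)-C and below in Kelly.

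Of the 7 autophagy genes, 2 passed in the average, both higher. MAP1LC3B encodes LC3B, the ATG8 protein that is joined to the autophagosome membrane (chromosome 16). It stood at 11.74, 11.72 and 11.76 in BE(2)-C with JQ1, against 10.36, 10.46 and 10.72 with DMSO. On Kelly arrays it was 11.06, 10.90 and 10.34 with JQ1, against 10.24, 10.14 and 9.93 with DMSO. The JQ1 arrays were above the DMSO arrays in both lines, by a wide margin in BE(2)-C and by a narrow one for the third Kelly array. MAP1LC3B rose 2.34-fold in BE(2)-C (1.23, SE 0.19, limma adjusted p = 0.00289). In Kelly its log2 fold change of 0.66 narrowly missed the threshold (SE 0.19, limma adjusted p = 0.0597), and it passed in the fit with the replicate block (0.0409). The Kelly value also passed without Kelly JQ1 replicate 3 (0.00842) or without BE(2)-C DMSO replicate 1 (0.0489). All 4 probe sets had positive estimates, from 1.20 to 1.32 in BE(2)-C and from 0.47 to 0.96 in Kelly, where the one at 0.96 passed when all probe sets were tested (limma adjusted p = 0.0209). MAP1LC3B has a near-identical copy, MAP1LC3B2, that some of these probe sets may also read.

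ULK1 encodes the kinase that starts autophagy and is itself restrained by mTORC1 (chromosome 12). It stood at 6.99, 6.80 and 7.19 in BE(2)-C with JQ1, against 6.57, 6.31 and 6.17 with DMSO. For Kelly, the values were 7.43, 7.27 and 7.91 with JQ1, against 6.84, 6.46 and 7.02 with DMSO. The groups did not overlap in either line. ULK1 rose 1.63-fold in the average (0.70, SE 0.15, limma adjusted p = 0.00775) and 1.70-fold in Kelly (0.76, SE 0.21, limma adjusted p = 0.0483). In BE(2)-C the log2 fold change of 0.64 did not pass (SE 0.21, limma adjusted p = 0.115). The average passed under all 19 alternatives run for it. The Kelly call lay just inside the threshold and was lost in 13 of 20 alternatives. Among these it was lost without BE(2)-C JQ1 replicate 1 (limma adjusted p = 0.0794), 2 (0.0651) or 3 (0.059), BE(2)-C DMSO replicate 2 (0.0734) or 3 (0.0575), Kelly JQ1 replicate 1 (0.0717), 2 (0.0521) or 3 (0.153), and Kelly DMSO replicate 1 (0.121) or 2 (0.2).

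WIPI1, which binds the phospholipid PI3P on the forming autophagosome, had estimates of opposite sign in the lines. It stood at 6.17, 6.87 and 6.01 in BE(2)-C with JQ1, against 5.48, 5.61 and 5.78 with DMSO. The Kelly arrays read 4.78, 5.24 and 5.08 with JQ1, against 5.50, 5.68 and 5.77 with DMSO. The JQ1 arrays lay above every DMSO array in BE(2)-C and below every DMSO array in Kelly, and the DMSO arrays of the lines covered nearly the same range. Neither change passed within its line, at 0.73 in BE(2)-C (SE 0.22, limma adjusted p = 0.085) and -0.62 in Kelly (SE 0.22, limma adjusted p = 0.118). The difference between the lines was 1.34 (SE 0.31, 95% interval 0.68 to 2.01) and did not pass either (limma adjusted p = 0.0894). The second probe set of WIPI1, dimmer at a mean of 4.99, gave 0.55 in BE(2)-C and -0.04 in Kelly.

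The other 4 autophagy genes did not pass. SQSTM1, the gene of the cargo receptor p62, lay at 10.19 to 10.32 in BE(2)-C with JQ1, above the 9.94 to 10.08 with DMSO, a log2 fold change of 0.23 (SE 0.20, limma adjusted p = 0.811). In Kelly it was at 9.10 to 9.77 with JQ1 and 9.22 to 9.72 with DMSO, a log2 fold change of -0.01. GABARAPL1, another ATG8 family gene, had 0.19 in BE(2)-C and 0.07 in Kelly, with 95% intervals of -0.13 to 0.50 and -0.25 to 0.38. The BE(2)-C interval of GABARAPL1 lay below that of MAP1LC3B, which ran from 0.81 to 1.64. ATG9A, a lipid scramblase of autophagosome growth, had -0.09 and 0.29. UVRAG, a partner of the lipid kinase VPS34, had -0.23 and -0.73, and its DMSO arrays were spread widely, from 6.95 to 8.05 in BE(2)-C and from 6.26 to 8.0 in Kelly. UVRAG passed as lower in Kelly without Kelly DMSO replicate 3 (-1.19, limma adjusted p = 0.0387).

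For the proton pump, 0 of 6 genes passed by limma in either line, and at an unadjusted p below 0.05 the count was also 0 in both. ATP6V0D1 and ATP6V0E1 encode parts of the membrane sector, ATP6V1A and ATP6V1B2 the A and B subunits of the ring that splits ATP, ATP6V1H a regulatory subunit and ATP6AP1 an accessory protein. All 6 estimates were positive in BE(2)-C, from 0.03 for ATP6V0E1 to 0.63 for ATP6V0D1, and all 6 were negative in Kelly, from -0.56 for ATP6V1H to -0.02 for ATP6V1A. Subunits of 1 complex on the same arrays are not independent, so the shared sign is 1 observation per line. ATP6V0D1 stood at 10.44, 10.64 and 10.43 in BE(2)-C with JQ1, against 9.60, 10.03 and 9.98 with DMSO. Its Kelly values were 9.27, 8.90 and 7.69 with JQ1, against 9.35, 9.14 and 7.91 with DMSO. It was the 1 pump gene whose groups did not overlap, and that in BE(2)-C. ATP6V1H stood at 8.33, 8.73 and 8.12 in BE(2)-C with JQ1, against 7.32, 8.37 and 8.42 with DMSO. Kelly cells had 7.53, 7.16 and 6.34 with JQ1, against 7.84, 8.12 and 6.76 with DMSO. The ATP6V1H arrays overlapped in both lines.

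The pump genes moved with a technical signal of the arrays. Bacterial transcripts are added to each labelled sample as hybridization controls, and their mean log2 signal over 9 probe sets differed between arrays. It averaged 11.41 ± 1.20 in BE(2)-C with JQ1, 11.20 ± 1.54 in BE(2)-C with DMSO, 12.94 ± 0.69 in Kelly with JQ1 and 11.90 ± 1.29 in Kelly with DMSO (SD, n = 3 each). The JQ1 arrays were higher by 0.21 in BE(2)-C (exact permutation test, two-sided p = 0.8) and 1.04 in Kelly (exact p = 0.3), but 3 arrays against 3 cannot give a p below 0.1. With this signal as a covariate, all 6 pump genes had a negative slope that passed, from -0.44 for ATP6V1H to -0.18 for ATP6V1A on the log2 scale. Of all 35 members 12 had a negative slope and 8 a positive one that passed, where 53.4% of all genes passed and 22.5% passed as negative. NEU1, NPC2 and MAP1LC3B had slopes between -0.11 and 0 that did not pass. ULK1 (0.18) and GRN (0.16) had positive slopes that passed.

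With the control signal in the model, the estimates of the pump genes ran from 0.11 to 0.70 in BE(2)-C and from -0.12 to 0.17 in Kelly, and 0 passed in either line. WIPI1 was then called higher in BE(2)-C (0.74, limma adjusted p = 0.0167), as was the difference between the lines (1.27, limma adjusted p = 0.0236), and had -0.52 in Kelly (0.116). HEXA had -0.94 in Kelly (0.0514). In this model 9 of 35 members passed in BE(2)-C, all higher. Of all 18132 genes 15.2% passed, 1485 as higher and 1266 as lower. The 9 members were NEU1, NPC2 and MAP1LC3B with ASAH1, PSAP, GRN, NPC1, WIPI1 and ULK1.

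**Figure D3:**
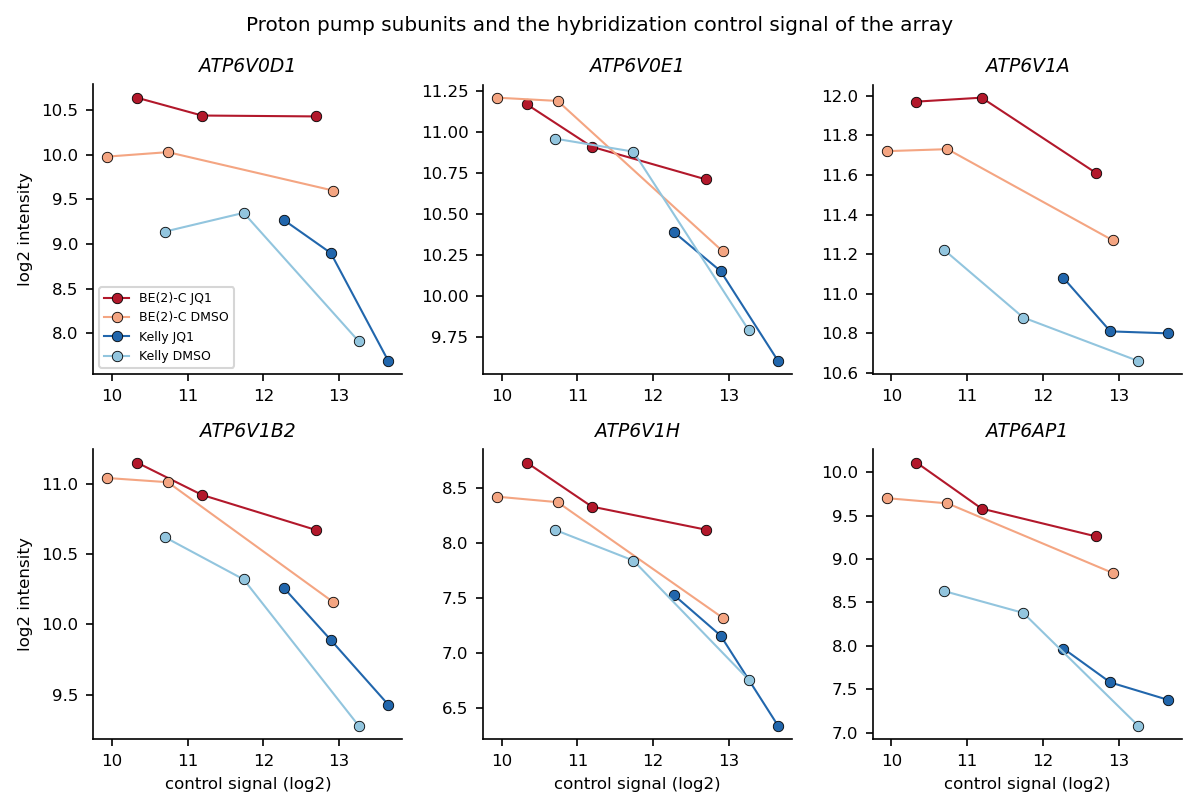
Log2 intensity of the 6 proton pump genes (y axis) against the log2 hybridization control signal of the array (x axis). Each point is 1 of 12 arrays, and lines join the 3 arrays of a group in order of the control signal. The slope over the groups is negative for all 6, from -0.44 to -0.18.

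The 4 TFEB family regulators gave no passing change in either line by limma, with 1 at an unadjusted p below 0.05 in each line. TFEB stood at 6.79, 6.55 and 6.74 in BE(2)-C with JQ1, against 7.36, 6.49 and 6.52 with DMSO. In Kelly it stood at 7.08, 6.96 and 6.84 with JQ1, against 6.84, 6.46 and 7.62 with DMSO. The JQ1 arrays lay within the range of the DMSO arrays in both lines. The log2 fold change of TFEB was -0.10 in BE(2)-C (95% interval -0.71 to 0.52) and -0.01 in Kelly (-0.63 to 0.60). TFE3, its close relative, stood at 6.39, 6.22 and 7.0 in Kelly with JQ1, against 6.07, 5.59 and 5.35 with DMSO, and at 6.10, 5.77 and 6.09 in BE(2)-C with JQ1, against 6.63, 5.92 and 5.59 with DMSO. The groups were apart in Kelly and overlapped in BE(2)-C. Its log2 fold change was 0.87 in Kelly (SE 0.28, limma adjusted p = 0.0924) and -0.06 in BE(2)-C. Without BE(2)-C DMSO replicate 1 the Kelly value of TFE3 passed (0.0381).

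MITF, the member of the family that drives pigment cell genes, stood at 6.24, 6.30 and 6.49 in BE(2)-C with JQ1, against 6.52, 6.84 and 6.78 with DMSO. On Kelly arrays it was 6.52, 6.07 and 6.17 with JQ1, against 6.52, 6.58 and 6.28 with DMSO. The JQ1 arrays were lower in BE(2)-C without overlap and overlapped with DMSO in Kelly. The brighter of its 2 probe sets gave -0.37 in BE(2)-C (SE 0.17, limma adjusted p = 0.315) and -0.21 in Kelly. The other MITF probe set fell by 1.04 in BE(2)-C when all probe sets were tested (limma adjusted p = 0.00329), and with the mean of both MITF passed as lower in BE(2)-C (-0.71, limma adjusted p = 0.00663). FLCN, the gene of folliculin, lay at 7.14 to 7.37 in Kelly with JQ1, just above the 6.64 to 7.10 with DMSO, a log2 fold change of 0.33 (SE 0.17, limma adjusted p = 0.255). In BE(2)-C FLCN had -0.02.

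The difference of the JQ1 effect between the lines was tested for all 35 genes. By limma 0 passed, where 0.557% of all genes did, 0.441% with a larger value in BE(2)-C. Of all 18132 genes 2049 were below an unadjusted p of 0.05, and 4 of the 35 members were, a similar share. Those 4 were WIPI1 (1.34), HEXA (1.44) and NPC2 (0.46), with a larger log2 fold change in BE(2)-C, and TFE3 (-0.94), with a larger one in Kelly. The median difference, BE(2)-C minus Kelly, was 0.17 over the members and -0.06 over all genes, and with quantile normalization it was -0.03 and -0.08. Estimates for MAP1LC3B were 1.23 in BE(2)-C and 0.66 in Kelly, and the 95% interval of their difference ran from -0.02 to 1.15. For ULK1 that interval ran from -0.76 to 0.52, and for GRN from -0.44 to 0.69.

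The lines differed in some of these genes without JQ1. Under DMSO, 8 of 35 members were higher in BE(2)-C than in Kelly and 0 were lower by limma. These 8 are 22.9% of the members, where 15.1% of all genes passed, 7.2% as higher and 7.89% as lower. With the mean of the probe sets 4 of 35 members passed, a smaller share than the 14.8% of all genes. At an unadjusted p below 0.05, 11 members were higher and 1 lower, and of all 18132 genes 2085 and 2307. The median log2 difference was 0.38 over the members and -0.04 over all genes, against 0.16 and 0.04 without Kelly DMSO replicate 3 and 0.20 and 0.03 with the control signal in the model. All 3 BE(2)-C arrays lay above all 3 Kelly arrays for 11 members, 31.4% of them, and below for 2, 5.71%, where 12.1% and 13.6% of all genes had this. Array quality also differed between these groups. The 3′ minus 5′ log2 signal of ACTB, which is high in degraded RNA, averaged 0.91 ± 0.31 in BE(2)-C and 1.67 ± 0.50 in Kelly (SD, n = 3 each, two-sided exact permutation p = 0.2), and the control signal differed by -0.70, BE(2)-C minus Kelly (exact permutation p = 0.6). The part of either in the differences was not tested, apart from the fit with the control signal. In that fit 11 of 35 members passed, and 26.5% of all genes did. Of all 12 arrays, the Kelly arrays of replicate 3 were highest in both measures. They had 2.24 for ACTB and 13.65 for the control signal with JQ1, and 2.22 and 13.26 with DMSO. Their part in the Kelly changes with JQ1 was not tested beyond the fits without 1 of them.

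CTSB, the cysteine protease cathepsin B, differed most. It stood at 12.01, 10.84 and 11.12 in BE(2)-C with DMSO, against 9.35, 8.77 and 10.26 in Kelly with DMSO. Both groups were spread over more than a log2 unit and yet did not overlap. CTSB was 3.63-fold higher in BE(2)-C (1.86, SE 0.39, limma adjusted p = 0.00548), and its 4 probe sets gave 1.83 to 1.94. ASAH1 stood at 9.09, 8.88 and 9.34 in BE(2)-C, against 7.78, 7.57 and 7.89 in Kelly, and was 2.56-fold higher (1.36, SE 0.22, limma adjusted p = 0.000974). All 5 probe sets of ASAH1 gave 1.33 to 1.92. CTSA stood at 9.86, 9.76 and 9.81 in BE(2)-C, against 9.17, 8.98 and 9.27 in Kelly, and was 1.59-fold higher (0.67, SE 0.15, limma adjusted p = 0.00646). The calls of CTSB, ASAH1 and CTSA held under all 18 alternatives run for this comparison.

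NPC2 stood at 7.30, 7.64 and 7.38 in BE(2)-C, against 6.69, 6.69 and 6.74 in Kelly, a log2 difference of 0.74 (SE 0.14, limma adjusted p = 0.0032) that was lost with the mean of its probe sets (0.0967). ATP6AP1 stood at 8.84, 9.64 and 9.70 in BE(2)-C, against 8.38, 8.63 and 7.08 in Kelly, a log2 difference of 1.36 (SE 0.38, limma adjusted p = 0.0267). These arrays did not overlap but came close. The ATP6AP1 call was lost without BE(2)-C DMSO replicate 2 (limma adjusted p = 0.104) or 3 (0.102) or Kelly DMSO replicate 3 (0.0778). LAMP2 stood at 9.42, 9.28 and 9.14 in BE(2)-C, against 8.32, 8.17 and 8.86 in Kelly, a log2 difference of 0.83 (SE 0.20, limma adjusted p = 0.0119). The LAMP2 call was lost without Kelly DMSO replicate 1 (0.057) or 2 (0.0528), and its 9 probe sets gave 0.06 to 1.58.

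TPP1 (0.99, SE 0.26, limma adjusted p = 0.0204) and ATP6V1A (0.65, SE 0.19, limma adjusted p = 0.0383) were called too, and both calls were often lost. TPP1 stood at 8.16, 8.75 and 9.05 in BE(2)-C, against 7.65, 8.01 and 7.33 in Kelly, and 8 dimmer TPP1 probe sets gave -0.17 to 0.41. With the mean of its probe sets TPP1 had 0.22 (limma adjusted p = 0.273). The TPP1 call was lost without BE(2)-C DMSO replicate 2 (0.0765) or 3 (0.095) or Kelly DMSO replicate 1 (0.0649) or 3 (0.0728). ATP6V1A stood at 11.27, 11.73 and 11.72 in BE(2)-C, against 10.88, 11.22 and 10.66 in Kelly, with a small gap between the lines. The ATP6V1A call was lost without BE(2)-C DMSO replicate 2 (0.153) or 3 (0.135), BE(2)-C JQ1 replicate 1 (0.0564) or 2 (0.0552), Kelly DMSO replicate 1 (0.117) or 3 (0.124) or Kelly JQ1 replicate 2 (0.0532). The dimmer probe sets of ATP6V1A gave 0.82 to 1.38 and did not pass when all probe sets were tested (limma adjusted p = 0.158 to 0.222). The count of 8 was 5 without BE(2)-C DMSO replicate 2 or 3 and without Kelly DMSO replicate 1 or 3, where 10.8%, 11.7%, 11% and 14.3% of all genes passed. It was 4 with the mean of the probe sets, so NPC2 and TPP1 were not the only calls lost there. DCN and LUM, the fibroblast markers named above, were also higher in BE(2)-C under DMSO, by 1.99 and 2.45, and their part in this difference was not tested.

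**Figure D4:**
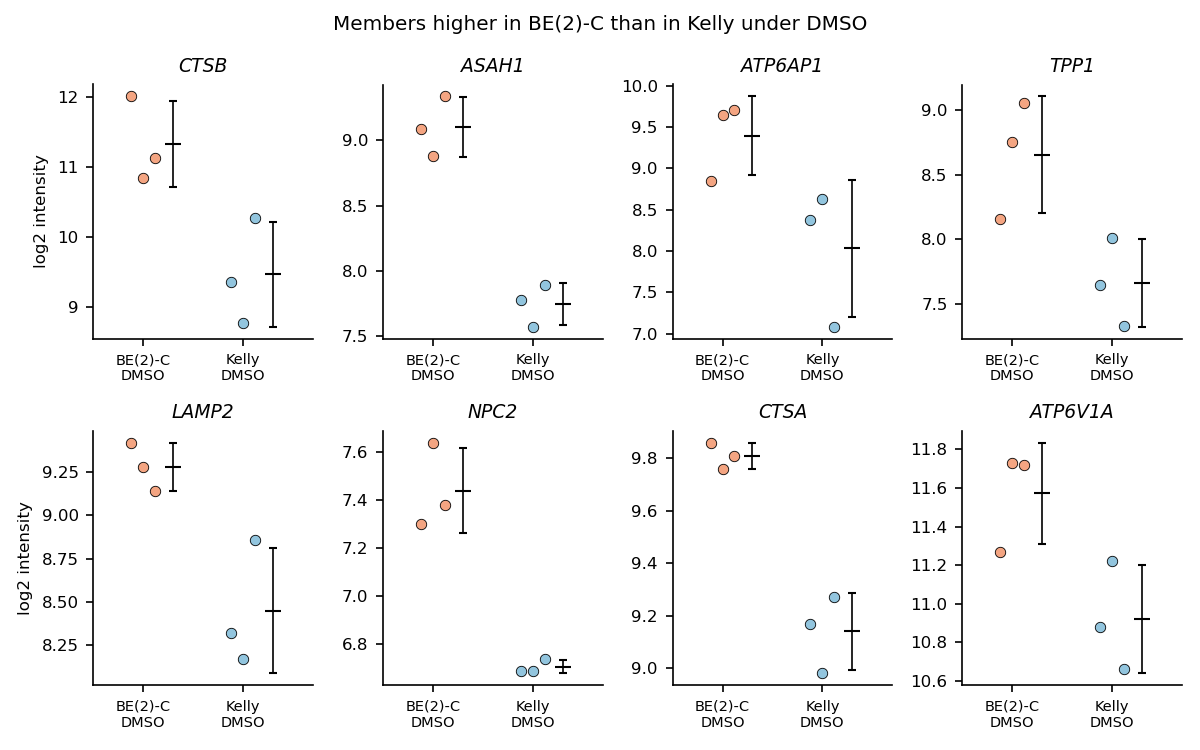
Log2 intensity (y axis) of the 8 genes that passed as higher in BE(2)-C than in Kelly, on each DMSO array (x axis by line). Points are arrays, and bars are the mean and SD of 3; the lines do not overlap for any of the 8 genes, and the log2 differences run from 0.65 for ATP6V1A to 1.86 for CTSB.

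The remaining genes of the pathway were read from 5 further lists with 160 symbols, of which 149 were measured. These lists too were chosen with earlier results of these data known, so their shares are descriptive. In BE(2)-C 15 of the 149 passed as higher and 2 as lower with JQ1, in Kelly 9 and 8, and in the average 22 and 11. That makes 22.1% of these genes in the average, where 11.1% of all genes passed, 4.02% as higher and 7.04% as lower. In BE(2)-C it was 11.4%, where 4.69% of all genes passed, 2.18% as higher and 2.51% as lower. In Kelly it was also 11.4%, where 6.5% of all genes passed, 1.76% as higher and 4.73% as lower. The BE(2)-C count of 17 was 7 to 10 without any 1 BE(2)-C JQ1 array or without BE(2)-C DMSO replicate 2 or 3, where 1.78% to 2.97% of all genes passed. The Kelly count of 17 was 8 and 10 without Kelly JQ1 replicates 2 and 3, 4 and 5 without Kelly DMSO replicates 1 and 2, and 28 without Kelly DMSO replicate 3. Of all genes 4.14%, 4.85%, 3.33%, 3.75% and 12% passed in these Kelly fits, in that order. By list, the average gave 6 higher and 5 lower of 30 other hydrolases and activators, 3 and 2 of 29 membrane and sorting proteins, 10 and 2 of 47 other autophagy genes, and 3 and 2 of 26 genes of nutrient sensing upstream of TFEB. Of 17 other proton pump subunits 0 passed in the average. At an unadjusted p below 0.05 there were 4 of these 17 and 4030 of all 18132 genes, a similar share.

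Other hydrolases went both ways. CTSK, the cathepsin of bone resorption, stood at 7.06, 6.89 and 6.62 in BE(2)-C with JQ1, against 5.70, 6.12 and 6.11 with DMSO, and at 6.43, 6.44 and 6.31 in Kelly with JQ1, against 5.89, 6.0 and 5.41 with DMSO. CTSK rose by 0.76 in the average (SE 0.14, limma adjusted p = 0.00297). In BE(2)-C alone CTSK passed at 0.88 (limma adjusted p = 0.0204), and its Kelly value of 0.63 did not pass (0.0739). GALC, the galactosylceramidase, stood at 6.63, 6.81 and 6.0 in BE(2)-C with JQ1, against 7.12, 8.37 and 8.63 with DMSO, and at 5.47, 5.26 and 4.75 in Kelly with JQ1, against 6.67, 7.35 and 6.23 with DMSO. It fell in the average by 1.58 (SE 0.28, limma adjusted p = 0.00242). PPT1, a thioesterase that takes fatty acids off proteins, stood at 9.38, 9.47 and 8.80 in BE(2)-C with JQ1, against 9.65, 10.08 and 10.54 with DMSO, and at 9.27, 9.46 and 8.19 in Kelly with JQ1, against 10.79, 10.93 and 10.53 with DMSO. PPT1 fell by 1.32 in the average (SE 0.23, limma adjusted p = 0.00225) and did not pass in BE(2)-C alone. MAN2B1, the acid mannosidase, rose by 0.58 in the average (SE 0.13, limma adjusted p = 0.0121). These 4 calls in the average held under all 19 alternatives run for it, but the size of the GALC change did not. With the mean of its probe sets GALC had -0.38 in the average, -0.56 in BE(2)-C and -0.19 in Kelly, against -1.58, -1.56 and -1.59 with the brightest.

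CLN3, a lysosomal membrane protein lost in juvenile Batten disease, stood at 7.83, 7.94 and 8.02 in BE(2)-C with JQ1, against 9.28, 9.06 and 8.78 with DMSO. For Kelly, the values were 7.72, 7.62 and 7.60 with JQ1, against 8.27, 8.07 and 8.39 with DMSO. It was lower with JQ1 on every array of both lines and fell by 0.86 in the average (SE 0.11, limma adjusted p = 0.000378). Of the nutrient sensors, SESN3, a sestrin that restrains mTORC1, stood at 6.54, 6.57 and 6.48 in BE(2)-C with JQ1, against 5.30, 5.11 and 5.08 with DMSO, and at 6.85, 6.92 and 6.56 in Kelly with JQ1, against 5.91, 6.04 and 5.84 with DMSO. It rose by 1.36 in BE(2)-C (limma adjusted p = 0.000283) and by 0.84 in Kelly (0.00406). RRAGD, a Rag GTPase that brings mTORC1 to the lysosome, fell by 0.81 in the average (SE 0.17, limma adjusted p = 0.00732).

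Among the other autophagy genes, the mitophagy receptor gene BNIP3L stood at 11.10, 11.11 and 11.05 in BE(2)-C with JQ1, against 9.25, 9.25 and 9.62 with DMSO. The Kelly arrays read 10.56, 10.45 and 10.28 with JQ1, against 9.91, 9.74 and 10.05 with DMSO. On this probe set BNIP3L was higher with JQ1 on all arrays of both lines, and rose by 1.71 in BE(2)-C (SE 0.16, limma adjusted p = 0.000103), a call that was lost with its brightest unsuffixed probe set (0.0848). In Kelly BNIP3L had 0.53, which did not pass (limma adjusted p = 0.0646), and the sign turned with the mean of its probe sets (-0.15) and with the unsuffixed one (-0.42). The BNIP3L average of 1.12 was lost under both, at 0.77 (limma adjusted p = 0.158) and 0.62 (0.348). OPTN, the cargo receptor optineurin, stood at 7.96, 8.32 and 8.10 in BE(2)-C with JQ1, against 6.75, 7.10 and 7.14 with DMSO, and rose by 1.13 (SE 0.17, limma adjusted p = 0.00237). In Kelly OPTN had a log2 fold change of 0.02. TAX1BP1, another cargo receptor, rose by 0.69 in the average (SE 0.11, limma adjusted p = 0.00143), with 0.73 in BE(2)-C and 0.64 in Kelly. This list also held falling genes, with 10 higher and 2 lower in the average. FUNDC1 stood at 8.22, 7.78 and 6.02 in Kelly with JQ1, against 9.68, 9.94 and 8.90 with DMSO. Its log2 fold change was -2.17 in Kelly (SE 0.50, limma adjusted p = 0.0221) and -1.33 in the average (0.0296). In BE(2)-C its -0.50 did not pass.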

How the data were processed

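Gene expression was measured on 12 arrays, 3 for each of 4 groups. The authors made the deposited intensity values with RMA (background correction, normalization between arrays and summary of probes into probe sets), per the submitters' processing notes, which name no version. They are linear, so log2 of each intensity was taken, with no offset. Array medians of 61.4 to 67.3 were nearly equal, so a change in total RNA per cell would not be seen. Of 49395 probe sets, 44994 named 1 gene; symbols were updated through gene identifiers (99.9% matched). The brightest probe set stood for a gene. The members had 118 probe sets, and 15 members were read by one with an _s_at or _x_at suffix, which may also read related genes.

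The 4 group means were fitted with limma 3.58.1 in R 4.3.3 over all 12 arrays. P-values are two-sided, adjusted by Benjamini-Hochberg over 18132 genes, with a threshold of 0.05. Precision is limited by the 3 arrays per group. Residuals of JQ1 and DMSO arrays with the same replicate number correlated at 0.434, 0.228 and 0.515 in Kelly and at -0.0707, 0.527 and -0.744 in BE(2)-C. Whether the numbers pair the samples is not in the labels. The alternatives were other probe sets, quantile normalization, a filter on dim genes, another prior, 1 line alone, the replicate block, the control signal and leaving out each array. The members and lists were chosen with earlier results of these data known. All 35 members are described; of each other list, up to 3 passing genes in each direction per line, those with the largest changes, could be named, and the ones described were picked after their values were seen. Promoters were searched only before the start.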

Additional observations from a re-analysis of the deposited data

Results flagged for a closer look

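3 genes were flagged: 2 whose JQ1 effect differed between the lines by limma, and WIPI1, whose arrays moved in opposite directions. The difference passed for 0 of 35 members and for 2 of 149 other listed genes, 1.34%, where 0.557% of all genes passed. For TP53INP1, an autophagy protein that binds LC3, the effect was larger in BE(2)-C by 2.31 on the log2 scale (3.38 in BE(2)-C, 1.08 in Kelly, limma adjusted p of the difference = 0.00868). With the mean of the TP53INP1 probe sets the difference was 1.14 (1.71 in BE(2)-C, 0.57 in Kelly) and still passed (limma adjusted p = 0.0328). Its level was 9.59 ± 0.37 in BE(2)-C with JQ1 and 6.21 ± 0.50 with DMSO, and 9.80 ± 0.06 in Kelly with JQ1 and 8.73 ± 0.06 with DMSO (SD, n = 3 each). For BNIP3L the effect was larger in BE(2)-C by 1.18 (1.71 in BE(2)-C, 0.53 in Kelly, limma adjusted p = 0.0331), and 12 of 19 alternatives lost this call. For WIPI1 all JQ1 arrays lay above the DMSO arrays in BE(2)-C and below them in Kelly, a difference of 1.34 that did not pass (limma adjusted p = 0.0894).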

How the results depend on the processing

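Over all alternatives, single member genes stayed on their side of the threshold in 3274 cases, lost a call in 45, gained one in 35 and turned in 1. That 1 was TPP1 between the lines, at -0.17 with its brightest unsuffixed probe set, and of the other listed genes the same setting gave 0 for PPP3CB in Kelly and -0.05 for GALNS and -0.29 for ATP6V0E2 in BE(2)-C. The cause was not tested. With single arrays left out, the count of members ran from 1 to 5 in Kelly, 3 to 3 in BE(2)-C, 5 to 6 in the average, 0 to 0 in the difference and 5 to 11 between the lines, and the count of other listed genes from 4 to 28 (Kelly), 7 to 21 (BE(2)-C) and 23 to 39 (average). The Kelly count of members, 3 as reported, was 1 with a trend and robust prior, 0 with the 6 Kelly arrays alone and 5 with the replicate block. Of all genes 6.12%, 3.22% and 8.4% passed in these fits. With the 6 arrays alone 5 other listed genes passed. The block changed no call of a member in BE(2)-C or in the difference, and added HEXA as lower in the average. When the control signal entered as a covariate, 9 members passed in BE(2)-C, 8 in the average and 1 in the difference, and of the other listed genes 28 in Kelly, 46 in BE(2)-C and 62 in the average. The same model called 12.6% of all genes in Kelly, 15.2% in BE(2)-C, 20.3% in the average, 3.78% in the difference and 26.5% between the lines, and the 6 Kelly arrays alone called 584 of all genes, against 1178 as reported. With the mean of the probe sets 4 of 35 members passed between the lines, a smaller share than the 14.8% of all genes. In BE(2)-C 9 of 149 other listed genes passed with unsuffixed probe sets and 28 with quantile normalization. Of all genes 3.67% and 6.29% passed in these BE(2)-C fits.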
